A study of Mus musculus with 4 samples.

Results

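The genes described here encode proteins of the spliceosome and the regulators that steer it, in mouse bone marrow-derived macrophages stimulated with lipopolysaccharide (LPS), a bacterial cell wall component. They were chosen by symbol, as every row whose name starts with Srsf, Hnrnp, Sf3a, Sf3b, Snrp, U2af or Prpf, which gave 66 of the 11111 genes in the table. The rule reads the symbol alone, and it was set with earlier results of these data known. Macrophages were grown for 7 days from marrow of wild-type C57BL/6 mice. They received either a control morpholino (Ctrl MO, 2 libraries) or morpholinos directed at the Regnase-1 mRNA (Reg1-MOs, 2 libraries). The Reg1-MOs were designed to keep Regnase-1 from degrading its own mRNA, not to deplete it. Morpholinos were given at 2 µM with the delivery peptide Endoporter at 6 µl/ml. After 24 hours all cultures received LPS at 10 ng/ml for 4 hours, so that both groups were transfected and stimulated and neither shows the unstimulated state. The columns of the Reg1-MOs libraries are headed MO1 and MO2, which the labels also use as names of the 2 targeting morpholinos, while the sample titles number the libraries as replicates 1 and 2. The labels do not settle whether each library received 1 morpholino or both, nor whether libraries came from separate mice or cultures, so the p-values speak for the variation among these 4 libraries alone, part of which may be technical.

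Introns are removed from pre-mRNA by the spliceosome, which assembles anew on each intron. The U1 particle reads the 5′ splice site. The protein pair U2AF reads the 3′ splice site and helps to place the U2 particle on the branch point. The U4/U6.U5 particle then joins, and several of the PRPF proteins help to drive the rearrangements of catalysis. Each particle is built on a small nuclear RNA, and those of U1, U2, U4 and U5 are held by a ring of Sm proteins. SR proteins, which carry stretches of alternating arginine and serine, mostly favour the use of nearby exons, whereas heterogeneous nuclear ribonucleoproteins (hnRNPs) often oppose it. Many SR and hnRNP proteins limit their own amount by splicing their transcripts into forms that are destroyed by nonsense-mediated decay. In macrophages, splicing after LPS stimulation shapes the output of inflammatory genes.

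The 66 genes differed little between the groups. By limma, 1 member rose with Reg1-MOs and 4 fell (adjusted p below 0.05), together 7.58% of the members, beside 12.2% of all genes of the table. Higher calls made up 6.22% and lower calls 6.03% of the table. The gene that rose was Snrpc, which encodes the U1-C protein of the U1 particle, at 1.34-fold. The genes that fell were the hnRNP genes Hnrnpa3 and Hnrnph1 and the SR protein genes Srsf2 and Srsf5, at 1.21-fold to 1.30-fold lower. No member differed by more than 1.5-fold, beside 9.53% of all genes, and the median size of the difference was 0.11 on the log2 scale, against 0.17 over all genes. For 63 of the 66 members the 95% interval of the difference lay within 1.5-fold in either direction, beside 7290 of the 11111 genes. The members also had more reads (median 1547, against 429.5 over all genes) and narrower intervals (median half-width 0.18 against 0.25). The part of this precision in the count was not tested.

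Depth was similar in all libraries, with 23369753 to 25213695 reads over the table and 404 to 437 reads for the median gene. The targeted gene, Zc3h12a, which encodes the RNase Regnase-1, was read 3407 and 3572 times in the controls and 7799 and 6753 times in the Reg1-MOs libraries, a 2.14-fold rise (limma adjusted p = 4.008e-04). No knockdown was intended, because the morpholinos were designed to keep Regnase-1 from degrading its own mRNA. A rise of this mRNA goes in the direction of that design. The amount of Regnase-1 protein was not measured in these data. All 8 macrophage markers searched were in the table, with a summed level of 14933 to 15144 CPM (reads scaled to a common library total) with Ctrl MO and 13649 to 14072 with Reg1-MOs. They went both ways, as Cd68 was called higher (0.34 on the log2 scale) and Itgam (-0.67) and Lyz2 (-0.27) lower. Markers of stromal cells and fibroblasts, 13 of 16 in the table, were lower in the Reg1-MOs libraries (207 and 210.0 against 83.8 and 94.7 CPM, all 13 called lower), while Lum, Pdgfra and Thy1 were not in the table. Neutrophil markers, 9 of 10 in the table without Ly6g, were at 413 to 454 against 346 to 424 CPM. The 9 cell cycle genes were at 399 to 422 against 375 to 398, with Top2a called lower (-0.70). Lymphocyte markers, 2 of 9 in the table, were at 12.5 and 13.1 against 10.1 and 11.8, and none of the 4 erythroid markers was in the table. The part of these shifts in the values of the splicing genes was not tested. In bulk RNA, a smaller share of cells that use a gene and less of its RNA per cell cannot be told apart.

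Promoter stretches of the 5 genes past the threshold are printed to show what lies directly upstream of a listed transcript start of each. Each is the 150 bases before the first transcript start that RefSeq lists (GRCm38.p6), written 5′ to 3′ on the gene's strand. Capitals mark matches, on either strand, to 4 short motifs: the ETS-factor core CCGGAAG, the GC box GGGCGG, the CCAAT box (CCAAT) and the core of the antioxidant response element (TGACNNNGC), which can overlap a GC box.
Snrpc (chr17:27839937-27840086, plus strand): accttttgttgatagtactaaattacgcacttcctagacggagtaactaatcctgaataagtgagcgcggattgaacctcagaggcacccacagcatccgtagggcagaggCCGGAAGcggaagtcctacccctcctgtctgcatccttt
Hnrnph1 (chr11:50376840-50376989, plus strand): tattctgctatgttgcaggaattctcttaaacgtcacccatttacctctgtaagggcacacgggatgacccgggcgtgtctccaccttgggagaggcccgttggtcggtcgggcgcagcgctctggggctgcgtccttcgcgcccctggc
Hnrnpa3 (chr2:75659109-75659258, plus strand): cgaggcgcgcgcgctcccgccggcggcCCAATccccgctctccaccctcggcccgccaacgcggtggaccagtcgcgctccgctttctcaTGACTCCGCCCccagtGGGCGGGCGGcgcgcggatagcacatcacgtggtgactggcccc
Srsf5 (chr12:80945349-80945498, plus strand): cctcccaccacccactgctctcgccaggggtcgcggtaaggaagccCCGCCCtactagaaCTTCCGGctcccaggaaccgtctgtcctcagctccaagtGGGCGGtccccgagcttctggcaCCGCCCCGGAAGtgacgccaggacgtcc
Srsf2 (chr11:116853095-116853244, minus strand): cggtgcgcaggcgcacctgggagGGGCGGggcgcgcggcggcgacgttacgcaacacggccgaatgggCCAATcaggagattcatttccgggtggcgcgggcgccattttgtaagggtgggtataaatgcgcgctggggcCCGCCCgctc
The 5 stretches have no motif of this set in common. Snrpc holds 1 ETS core and Srsf5 holds 2 ETS cores with 3 GC boxes. The Snrpc stretch lies within the gene as GENCODE M21 places it (chr17:27838150-27851968), so it is not upstream of that whole gene. Srsf2 holds 2 GC boxes and 1 CCAAT box. Hnrnpa3 holds 3 GC boxes, 1 CCAAT box and 1 antioxidant response element core. None of the 4 motifs lies in the Hnrnph1 window, but RefSeq lists 5 starts for that gene and only the first was read. Among the 57 members with a RefSeq promoter, 22.8% held the ETS core, 52.6% a GC box, 42.1% a CCAAT box and 7.02% an antioxidant response element core in these 150 bases. Over the 8966 table genes with a promoter the shares were 12.5%, 54.7%, 28.8% and 8.60%. A match is a run of letters and does not show a site in use.

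Of the 66 splicing genes, 45 had a difference below 0 and 21 above, beside 6043 and 5068 of all 11111 genes. Their median difference was -0.06 on the log2 scale, beside -0.03 over all genes. When Reg1-MOs replicate 2 was dropped it was -0.025, beside -0.028 over all genes, so it was then not below that of all genes. With equal library totals it was -0.037, beside -0.0027. Both Reg1-MOs libraries lay below both Ctrl MO libraries for 29 members (43.9%, beside 31.8% of all genes) and above them for 13 (19.7%, beside 27.1%), and the groups overlapped for the other 24. With equal library totals, 21 members lay below (31.8%, beside 28.8% of all genes) and 12 above (18.2%, beside 29.1%). The members took 0.602% and 0.596% of the reads in the Ctrl MO libraries and 0.581% and 0.576% in the Reg1-MOs libraries. An unadjusted p below 0.05 was found for 17 members, 25.8%, beside 29.4% of all genes, so the calls of the splicing genes were no more frequent than in the table as a whole.

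**Figure D1:**
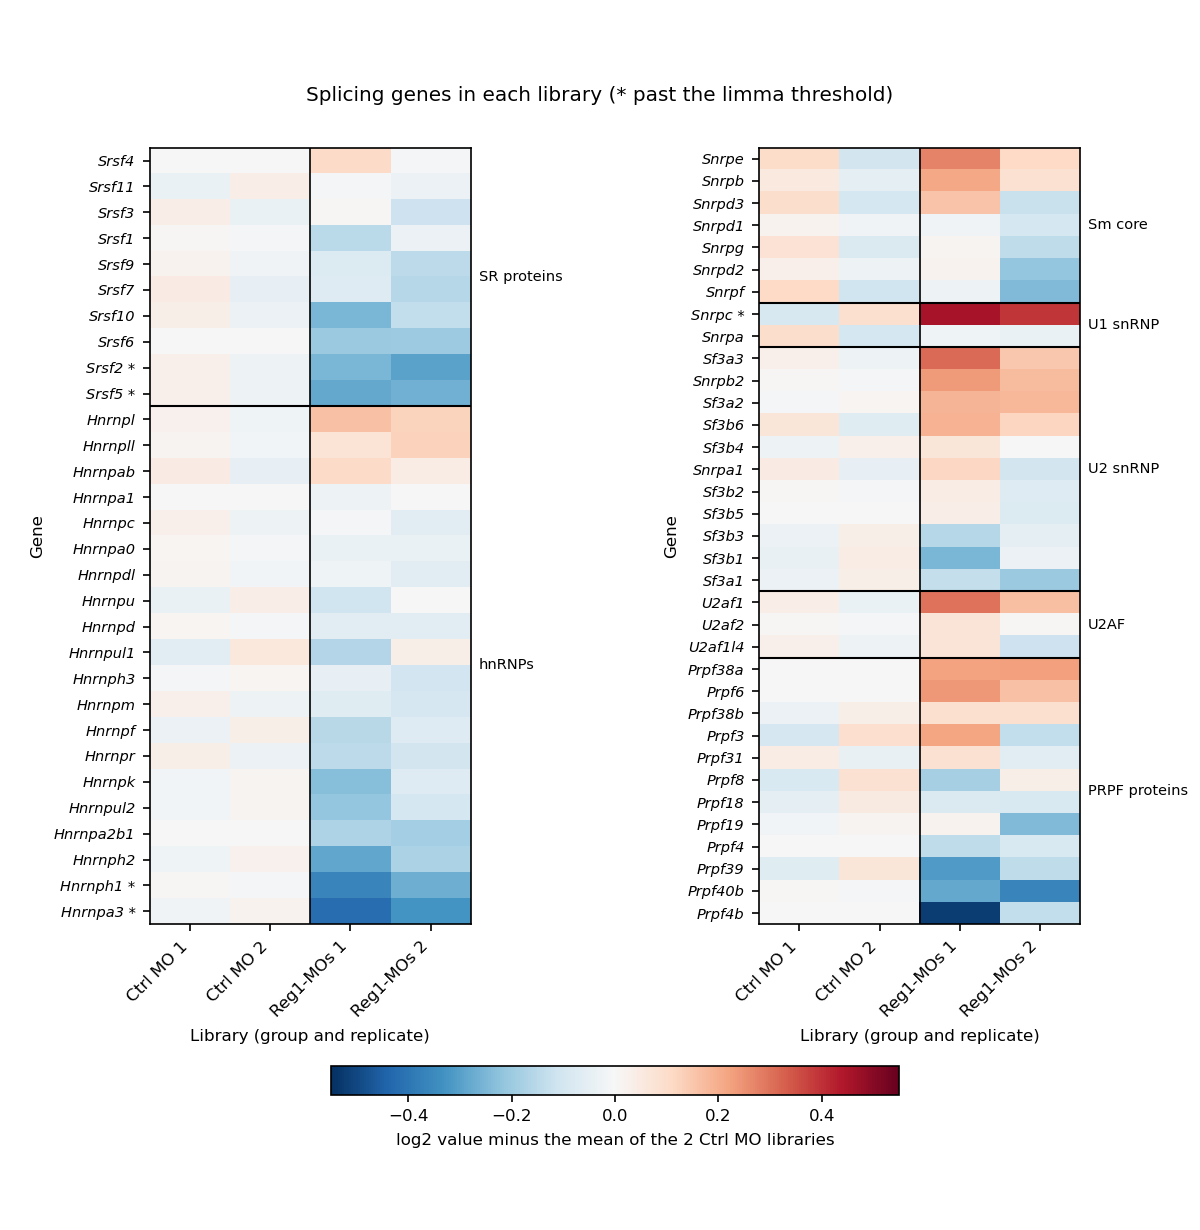
Each row is 1 of 65 of the 66 splicing genes and each column 1 library; the colour is the deposited log2 value minus the mean of the 2 Ctrl MO libraries, and an asterisk marks the 5 genes past the limma threshold. Blue (lower) dominates the SR protein and hnRNP rows of the Reg1-MOs columns, while the other classes hold red and blue rows.

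SR proteins were the class with the lowest median, at -0.11 on the log2 scale. Of the 10 SR protein genes, 2 fell (20%, beside 6.03% of all genes) and none rose (beside 6.22%). The Reg1-MOs libraries lay below both controls for 7 (70%, beside 31.8% of all genes). This count is on the deposited scale and was not taken by class with equal library totals. With those totals, 21 of the 66 members lay below, against 29 on the deposited scale. Srsf5, the SR gene with the most reads per kilobase, had 5213 and 5010 reads in the controls, against 4275 and 3968 in the Reg1-MOs libraries. The groups did not overlap, and the difference was -0.27 (SE 0.06, limma adjusted p = 0.0345). Srsf2, encoding SC35, a component of nuclear speckles, had 2609 and 2504 reads against 2184 and 1943. Both Reg1-MOs libraries were below both controls, by 0.27 on the log2 scale for the means (SE 0.07, limma adjusted p = 0.0428).

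Other SR genes stood closer to the controls. Srsf6 had 3109 and 3094 reads against 2740 and 2516 (-0.20, SE 0.06, limma adjusted p = 0.0848), and the splicing repressor Srsf10 had 1484 and 1416 against 1239 and 1231 (-0.19, SE 0.08, adjusted p = 0.154). In both genes the groups were separate without passing the threshold. Srsf1, the founding member of the family, had 2521 and 2494 reads against 2301 and 2285 (-0.09, 95% interval -0.26 to 0.08). Srsf7 (-0.11) and Srsf9 (-0.11) also had both Reg1-MOs libraries below the controls, whereas Srsf3 (-0.05), Srsf11 (-0.02) and Srsf4 (0.05) overlapped. For these last 3 genes the 95% intervals ran from -0.23 to 0.12, -0.18 to 0.14 and -0.13 to 0.22.

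Of the 20 hnRNP genes, 2 fell (10%, beside 6.03% of all genes) and none rose (beside 6.22%), with a class median of -0.07. In 14 (70%, beside 31.8% of all genes) both Reg1-MOs libraries were below both controls. That count too was taken on the deposited scale alone, and it includes narrow gaps. For Hnrnpa1 the deposited log2 values were 6.634 and 6.638 in the controls, against 6.608 and 6.633. Hnrnph1, whose protein binds runs of guanine in pre-mRNA, had 3372 and 3336 reads in the controls, against 2649 and 2597 in the Reg1-MOs libraries. All 4 libraries fell into 2 separate pairs, with a difference of -0.32 (SE 0.07, limma adjusted p = 0.0271), the smallest p among the 66 genes. Its X-linked relative Hnrnph2 stood at 3107 and 3199 against 2630 and 2606, separate but not past the threshold (-0.23, SE 0.07, adjusted p = 0.0788), and the related Hnrnpf (-0.11) and Hnrnph3 (-0.08) were closer still to the controls.

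Hnrnpa3, of the A/B subfamily that includes the classical splicing repressor hnRNP A1, had 592 and 606 reads against 455 and 444. This was the largest fall of any member, at -0.37 (SE 0.09, limma adjusted p = 0.0345). Its subfamily did not share that size. Hnrnpa2b1, the splicing gene with the most reads per kilobase, had 10397 and 10329 reads against 9369 and 8482 (-0.18, SE 0.06, adjusted p = 0.0978), with both Reg1-MOs libraries below the controls. Hnrnpa1 had 1894 and 1897 reads against 1889 and 1763 (-0.02, 95% interval -0.17 to 0.14), and Hnrnpa0 stood at -0.04.

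Among the other hnRNP genes, the poly(C)-binding Hnrnpk (7864 and 8020 against 6855 and 7038 reads, -0.15) and the scaffold-attachment relative Hnrnpul2 (8528 and 8716 against 7558 and 7505 reads, -0.16) were separate between the groups with adjusted p of 0.214 and 0.175 by limma. Hnrnpu itself stood at -0.06 and Hnrnpul1 at -0.07, and in both the groups overlapped. The 2 hnRNP genes with both Reg1-MOs libraries above the controls were Hnrnpl (1722 and 1661 against 1923 and 1714 reads, 0.14) and its paralogue Hnrnpll (3004 and 2938 against 3177 and 3021 reads, 0.10), known for regulating exons of the leukocyte phosphatase CD45. Neither passed (limma adjusted p = 0.227 and 0.357). The AU-rich element binder Hnrnpd stood at -0.06, with Hnrnpdl at -0.04, Hnrnpab at 0.07, Hnrnpc at -0.03, Hnrnpm at -0.08 and Hnrnpr at -0.12.

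**Figure D2:**
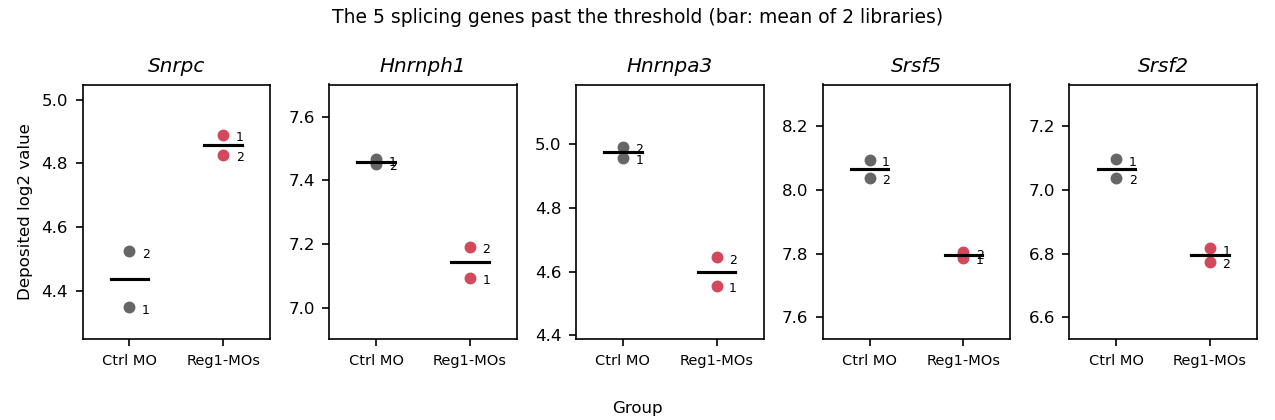
Deposited log2 values of the 5 splicing genes past the threshold, by group, with replicate numbers beside the points, bars at the mean of 2 libraries and vertical axes of equal span. In each gene the 2 Reg1-MOs libraries lie on 1 side of both controls, above for Snrpc and below for the other 4.

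The U1 particle held the only rise. Snrpc, whose small zinc finger protein steadies the pairing of U1 with the 5′ splice site, had 388 and 438 reads in the controls, against 574 and 504 in the Reg1-MOs libraries. Both Reg1-MOs libraries lay above both controls, with a difference of 0.42 (SE 0.10, limma adjusted p = 0.0341), although the controls themselves differed by 0.18. The other gene placed in the U1 class here, Snrpa, encoding U1-A, had 327 and 285 reads against 305 and 277. Its groups overlapped (-0.03, 95% interval -0.29 to 0.22). Snrnp70, the gene of the U1-70K protein, is outside the symbol rule and was looked up after the value of Snrpc was seen; it had 3330 and 3213 reads against 3175 and 2778, a difference of -0.10.

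None of the 7 Sm core genes passed, and their median was -0.06, turning to 0.01 when Ctrl MO replicate 1 was dropped and to 0.02 when Reg1-MOs replicate 2 was, and moving to -0.12 without Reg1-MOs replicate 1 and to -0.034 with equal library totals. Snrpb, the Sm gene with the most reads per kilobase, had 2523 and 2336 reads against 2861 and 2400, above the controls on the deposited scale in both Reg1-MOs libraries (0.15, limma adjusted p = 0.253), as was Snrpe (0.19, adjusted p = 0.311). The remaining 5, from Snrpf (-0.13) through Snrpd2 (-0.10), Snrpg (-0.06) and Snrpd1 (-0.06) to Snrpd3 (0.02), overlapped. These 5 genes had 140 to 668 reads per library, and their 95% intervals were wide, as far as -0.45 to 0.18 for Snrpf. Over all 7 Sm core genes the median half-width was 0.27, beside 0.18 for all members.

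The U2 particle and its SF3 complexes showed no call among 11 genes, with a median of 0.01 that turned to -0.02 when Ctrl MO replicate 2 was dropped and to -0.03 when Reg1-MOs replicate 1 was, and was 0.07 without Reg1-MOs replicate 2. Sf3b1, encoding the branch point-gripping subunit that is often mutated in myelodysplasia, had 8804 and 9283 reads against 7714 and 8238 (-0.14, limma adjusted p = 0.311), and its groups overlapped on the deposited scale. Sf3a3 had 1050 and 1012 reads against 1302 and 1063 (0.23, adjusted p = 0.125), Snrpb2, encoding U2-B″, 883 and 875 against 1051 and 923 (0.20, adjusted p = 0.129), and Sf3a2 887 and 899 against 1034 and 944 (0.19, adjusted p = 0.151). With Sf3b6 (0.15), these were the 4 genes whose Reg1-MOs libraries both lay above the controls. The 3 subunits of SF3a did not move alike, as Sf3a1 stood at -0.17, below both controls; Sf3b3 was also below (-0.10). Sf3b4 (0.03), Snrpa1 (0.01), Sf3b2 (-0.02) and Sf3b5 (-0.02) overlapped.

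Of the U2AF genes, U2af1, encoding the small subunit that reads the AG at the intron end, had 630 and 600 reads against 768 and 643 (0.23, limma adjusted p = 0.133), with the groups separate. Its partner U2af2, the polypyrimidine tract reader, stood at 2281 and 2262 against 2427 and 2124 reads (0.04, 95% interval -0.12 to 0.20). U2af1l4 overlapped at -0.02.

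None of the 13 PRPF genes passed, and they spread more widely, from -0.33 to 0.22 around a median of -0.08, which moved to -0.13 without Ctrl MO replicate 1 and to -0.034 without Ctrl MO replicate 2. Prpf38a, which acts in activation of the assembled spliceosome, had 2790 and 2797 reads against 3306 and 3044 (0.22, SE 0.06, limma adjusted p = 0.0629) and passed with equal library totals (adjusted p = 0.0482). The groups were separate upwards also for the tri-snRNP bridging protein Prpf6 (924 and 919 against 1104 and 959 reads, 0.20) and for Prpf38b (0.09). Prpf4b, a kinase of the spliceosome, had 2018 and 2025 reads against 1432 and 1716 (-0.33, SE 0.12, limma adjusted p = 0.122), and the 2 Reg1-MOs libraries differed from each other by 0.39. With Reg1-MOs replicate 1, the lower of them, as the single library of its group Prpf4b stood at -0.52. The spread within Reg1-MOs could not be measured in that setting.

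Prpf40b, the member with the fewest reads, had 107 and 106 against 89 and 77 (-0.32, limma adjusted p = 0.178). Prpf39 stood at -0.22, Prpf4 at -0.11 and the step-2 factor Prpf18 at -0.08, each below both controls. The catalytic-centre scaffold Prpf8 had 4623 and 5192 reads against 4390 and 4663 (-0.08) and overlapped, as did Prpf19 (-0.11), Prpf31 (0.01) and Prpf3 (0.04).

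**Figure D3:**
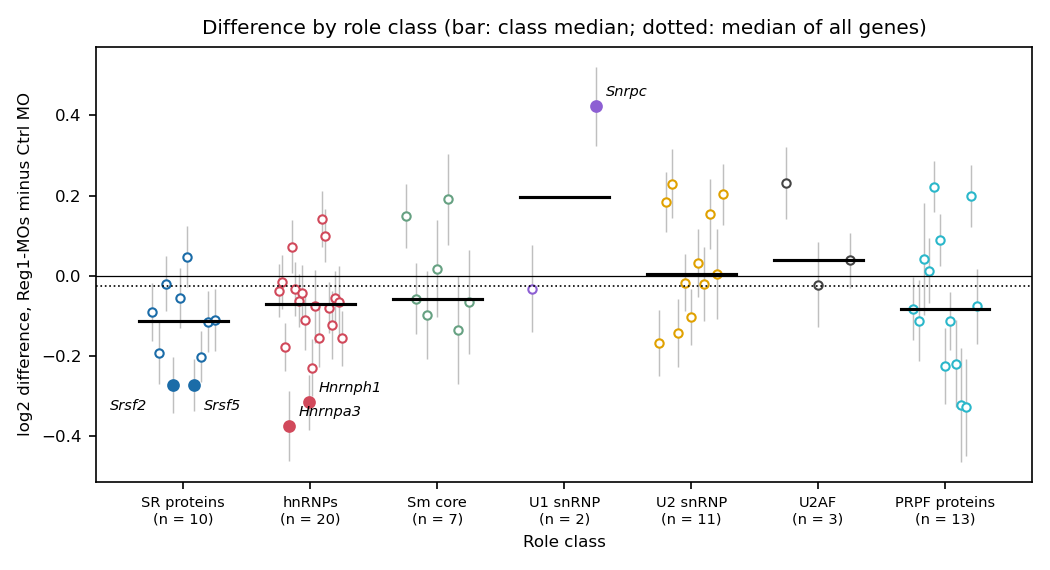
Log2 difference of each splicing gene (Reg1-MOs minus Ctrl MO; whiskers are 1 SE from limma) by role class, with filled points for genes past the threshold, bars at class medians and a dotted line at the median of all genes, -0.03. SR proteins and hnRNPs lie mostly below 0, with medians of -0.11 and -0.07, and Snrpc stands alone at 0.42.

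The 5 calls rested on small differences and few libraries. None held without a variance trend (adjusted p from 0.0922 for Hnrnpa3 to 0.139 for Srsf2), and each ended when some single library was left out. Those of Hnrnph1 (adjusted p up to 0.208) and Hnrnpa3 (up to 0.241) ended when a control or Reg1-MOs replicate 1 was dropped. That of Snrpc (up to 0.246) did so when Ctrl MO replicate 1, Reg1-MOs replicate 1 or Reg1-MOs replicate 2 was dropped, and those of Srsf2 (up to 0.368) and Srsf5 (up to 0.348) ended without any 1 of the 4. The Srsf2 call also ended with quantile normalization (adjusted p = 0.0592) and equal library totals (0.0610), and that of Srsf5 with quantile normalization (0.0522). The direction of all 5 was the same in each of these settings.

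Reads of some members could have been shared with other genes. Of the 75-base windows in the longest coding transcript, 27.9% of Hnrnpa3, 22.6% of Srsf5 and 11.2% of Snrpc occurred also in an annotated transcript of another gene, whereas none of Srsf2 or Hnrnph1 did. The share was highest for U2af1l4 (97.2%), followed by U2af1 (53.9%), Hnrnpf (46.4%), Hnrnpa1 (44.4%) and Sf3b4 (43.2%), so the values of these genes are uncertain, since how such reads were counted is not given in the sources used here. Exons of Srsf2 overlap those of Mettl23 on the opposite strand over 460 bases, 23.0% of its exon length, and those of Mfsd11 over 288 bases, 14.4%. The largest such overlaps were those of Srsf4 with Gm12992 (67.9%), Snrpf with Ccdc38 (65.9%) and Hnrnpab with Phykpl (29.1%). On the same strand, U2af1l4 shared 95.3% of its exon length with Gm49396 and Hnrnpm 23.4% with March2. The strand setting of the counting is likewise not given, so these values are uncertain too.

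At the level of annotation, 34 of the 66 members (51.5%) had at least 1 transcript that GENCODE M21 classes as a target of nonsense-mediated decay, beside 30.3% of the 10883 protein-coding genes of the table, and 50 (75.8%) had one with a retained intron, beside 61.5%. Srsf2 had 2 such decay-class transcripts and Srsf5 had 1, while Snrpc, Hnrnph1 and Hnrnpa3 had none. The table gives 1 value per gene, so productive and unproductive transcripts of a splicing gene cannot be told apart in it.

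Per unit of length, most splicing genes were among the better expressed genes of these macrophages. The median was 20.4 RPKM (CPM divided by exon length in kilobases), beside 5.33 over all genes. Hnrnpa2b1 led at 161, followed by Srsf5 (113), Hnrnpab (105), Snrpb (88.9) and Prpf38a (80.4). The lowest were Hnrnpa3 (4.01), Hnrnpr (1.11) and Prpf40b (1.10). SR proteins and hnRNPs had medians of 30.1 and 30.5 on this scale, U2 genes 17.0, and the Sm core and PRPF genes 10.9 each. These levels divide by the union of coding transcripts' exons, so that genes with long alternative ends, such as Hnrnpr with 21696 bases, appear low.

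The differences moved with gene length. Across the 66 members, which are not independent and share the same libraries, Spearman's rho between exon length and the Reg1-MOs minus Ctrl MO difference was -0.48, beside -0.19 over the 11088 genes with an annotated length. Of the 33 members longer than the median of 3042 bases, 29 were below 0, with a median of -0.10, and of the 33 shorter ones 16 were, with a median of 0.01. Over all genes, the same length limit gave medians of -0.07 for the longer and 0.03 for the shorter. Below 0 were 3837 of the 6299 longer genes and 2197 of the 4789 shorter ones. The hnRNPs had the longest median exon length of the classes, 3913.5 bases, with a median difference of -0.07. For SR proteins the median length was 2598.5 bases, with a median difference of -0.11. Within classes the rho was -0.77 for the 11 U2 genes, -0.74 for the 13 PRPF genes, -0.26 for the 20 hnRNPs and 0.18 for the 10 SR proteins. Srsf5 and Srsf2, at 1656 and 2003 bases, were lower than other members of their length.

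**Figure D4:**
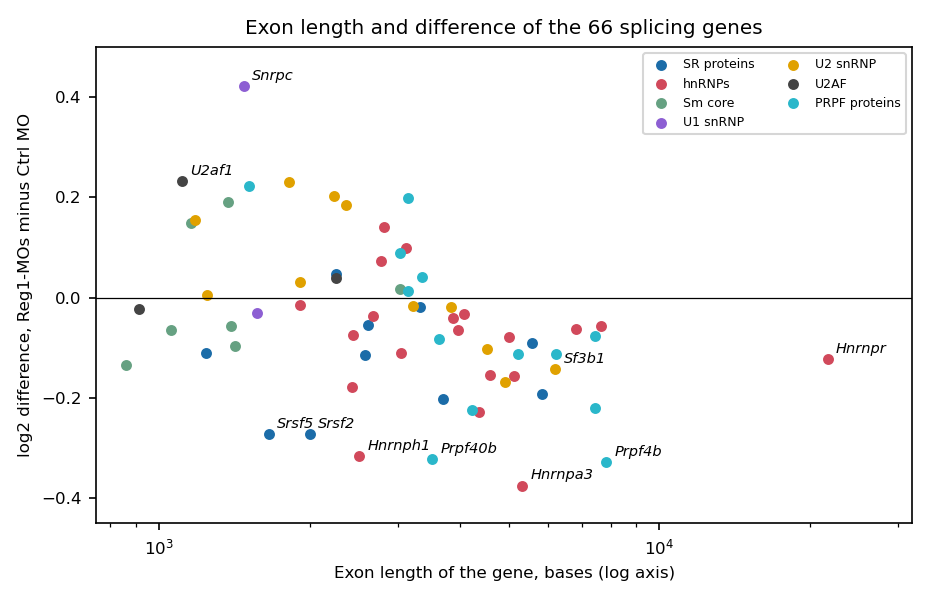
Log2 difference of the 66 splicing genes (Reg1-MOs minus Ctrl MO) against exon length in bases on a log axis, coloured by role class. Points above 0.1 lie mostly at short lengths, and Srsf5, Srsf2 and Hnrnph1 sit low among the shorter genes.

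Length moved also with the differences between libraries of the same group. Replicate 2 minus replicate 1 gave a rho with exon length of 0.50 in Ctrl MO and 0.61 in Reg1-MOs across the members, and 0.33 and 0.49 over all genes. All 7 Sm core genes, with exon lengths of 861 to 3036 bases, were lower in replicate 2 than in replicate 1 in both groups, by a median of 0.15 in Ctrl MO and 0.17 in Reg1-MOs. In the opposite direction, Prpf8 was higher in replicate 2 by 0.17 and 0.21. The part of this spread between libraries in the group differences was not tested.

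**Figure D5:**
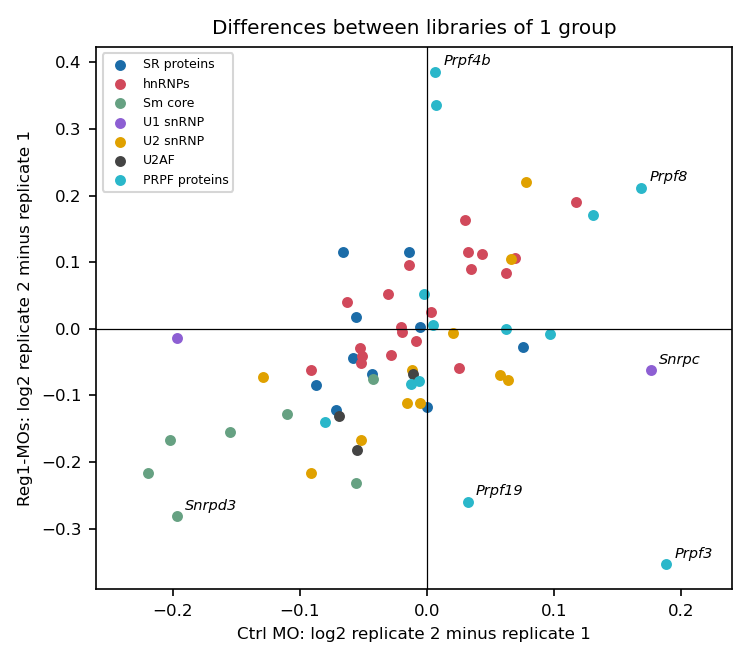
For each splicing gene, replicate 2 minus replicate 1 on the log2 scale in the Ctrl MO libraries (horizontal) and in the Reg1-MOs libraries (vertical), coloured by role class. The 7 Sm core genes all lie in the lower left, and Prpf4b differs by 0.39 between the Reg1-MOs libraries while its controls differ by 0.01.

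Few other genes of the pathway passed the threshold. Of 129 listed spliceosome and splicing factor genes outside the symbol rule, 126 were in the table, and 1 rose and 2 fell, 2.38% beside 12.2% of all genes, with a median of -0.04 that stood at -0.018 without Ctrl MO replicate 1 and -0.012 with equal library totals. Ewsr1, an RNA-binding protein of the FET family that contacts U1-C, rose from 2876 and 2858 reads to 3521 and 3309 (0.29, SE 0.06, limma adjusted p = 0.0284). Luc7l3, related to a yeast U1 protein, fell from 3809 and 3663 reads to 2983 and 2786 (-0.33, SE 0.07, adjusted p = 0.0183). Syf2, a factor of the catalytic stage, fell from 3007 and 2910 reads to 2541 and 2204 (-0.28, SE 0.07, adjusted p = 0.0396). In all 3 the groups did not overlap.

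Next in order of p in that list came 3 genes just outside the threshold. The cold-inducible Cirbp had 243 and 223 reads against 176 and 161 (-0.43, limma adjusted p = 0.0502), Fubp1 1956 and 2056 against 1663 and 1584 (-0.27, adjusted p = 0.0527), and the helicase gene Ddx42 1988 and 2032 against 1679 and 1595 (-0.26, adjusted p = 0.0528). All 3 passed with quantile normalization. By kind, the sequence-specific regulators had 30 of 40 members below 0 and a median of -0.11. The SR-like coactivators and SR kinases had 16 of 21 below 0 and a median of -0.10. Over all genes, 6043 of 11111 were below 0. In contrast, other snRNP proteins (13 of 29 below 0, median 0.03), catalytic-stage factors (12 of 28, median 0.03) and branch point partners (2 of 8, median 0.04) had most members above 0. The 3 calls ended without a variance trend, where the only call of the list was Rbfox2 (42 and 42 against 28 and 27 reads, -0.56; adjusted p = 0.125 with the trend), named after its value was seen. They ended also when either control or Reg1-MOs replicate 1 was dropped, and that of Syf2 when Reg1-MOs replicate 2 was dropped or library totals were made equal (adjusted p = 0.0557).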

How the data were processed

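Directional libraries were prepared from poly(A) RNA (NEBNext Ultra II) and sequenced on an Illumina NextSeq, as the labels' protocols state. The submitters' processing notes name cutadapt, FastQC, HISAT2 1.6.3 and mm10. Not given in the sources used here is how reads were counted, on which strand, and how genes were filtered and values normalized. A single table came from the authors, holding log2 values, 1 column per library. In every column 100% of the values were log2 of (reads + 0.5) times 1 constant per library, within 0.01 of a whole read, so the reads were recovered.

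Differences, standard errors and two-sided p-values come from limma 3.58.1 (R 4.3.3) with a mean-variance trend, fitted with a single group term to the deposited values of the whole table, 11111 genes. Benjamini-Hochberg adjustment ran over all of them, and the threshold was 0.05. Every fold is on this log2 scale. Residual degrees of freedom were 2 and prior ones 5.47. The script was tested on simulated data. The 11 alternatives were quantile normalization, equal library totals, no variance trend, voom weights, an offset of 8 reads, a minimum mean of 50 reads, a replicate block and each library left out.

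The members, role classes and lists were chosen with earlier results of these data known. Genes named by rule are Zc3h12a, members past the threshold, those with the most reads per kilobase and the smallest p in each class, the 5 largest rises and falls at a mean of at least 50 reads, and 6 of the other splicing list by smallest p. The remaining members are named to account for the 66, except 1 that is counted but not reported here. Lengths, positions and transcript classes come from GENCODE M21 (GRCm38), where all 66 identifiers and symbols matched, and promoters from RefSeq (GRCm38.p6), where 57 matched. Intervals are 95% intervals of single genes, unadjusted.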

Additional observations from a re-analysis of the deposited data

How the results depend on the processing

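The median half-width of the members' 95% intervals was 0.18 on the log2 scale. It was 0.27 for the Sm core, with a median of 386 reads, and 0.17 for SR proteins, with 2324 reads; the parts of depth and of the spread between libraries were not separated. Where 1 library was left out, the lone library of its group was assumed to vary like the other group. Splicing genes called higher and lower were 1 and 4; they were 1 and 2 with quantile normalization, 2 and 3 with equal library totals, 0 and 0 without a variance trend, and 0 to 1 and 0 to 4 with 1 library left out. Voom weights, an offset of 8 reads and a minimum mean of 50 reads gave the same 5 genes. Without Reg1-MOs replicate 2 the 4 lower genes included Hnrnpa3, Hnrnph1 and Prpf4b. Genes with both Reg1-MOs libraries above the controls ranged from 13 to 25 and below them from 33 to 44 with 1 library left out (19.7% to 37.9% and 50.0% to 66.7%, beside 34.6% to 38.8% and 39.5% to 46.4% of all genes); separation is easier with 3 libraries, so these are not to be set against the counts from 4. The other splicing list, with 1 higher and 2 lower calls, had 5 lower with quantile normalization, 1 lower with equal library totals, 0 higher and 1 lower without a variance trend, and 0 to 1 higher and 0 to 4 lower with 1 library left out.

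The replicate numbers pair no libraries by any label: replicate differences of the groups had an r of 0.10 across all genes and 0.40 across the members. With a replicate block, 6 members were called higher and 13 lower, beside 30.8% of all genes called; by class these were 4 SR protein, 6 hnRNP and 3 PRPF genes lower, and 1 U1, 2 U2, 1 U2AF and 2 PRPF genes higher. The other list then had 6 higher and 22 lower. By class, SR protein falls were 0 with quantile normalization, 1 with equal library totals, 0 without a variance trend and 0 with any library left out; hnRNP falls were 0 without a variance trend and 0 to 2 with 1 library left out; the U1 rise was 0 without a variance trend and 0 to 1 with 1 left out; PRPF rises were 1 with equal library totals, and PRPF falls 0 to 2 with 1 left out. Medians moved with equal library totals to -0.037 for all members, -0.089 for SR proteins, -0.047 for hnRNPs, 0.218 for U1 and 0.028 for U2. With 1 library left out they ranged from -0.071 to -0.025 for all members, -0.144 to -0.085 for SR proteins, -0.089 to -0.067 for hnRNPs, -0.032 to 0.066 for U2 and -0.127 to -0.034 for PRPF genes. The cause of these shifts was not tested, beyond the smaller number of libraries where 1 was left out.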
